A study of Mus musculus with 8 samples.

Results

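The genes described here are 10 regulators of the G1 phase of the cell cycle: the D-type cyclin genes *Ccnd1*, *Ccnd2* and *Ccnd3*, their kinase partners *Cdk4* and *Cdk6*, the E-type cyclin genes *Ccne1* and *Ccne2*, the transcription factor gene *E2f1*, and the CDK inhibitor genes *Cdkn1b* and *Cdkn2c*. They were chosen by gene symbol, and all 10 were found among the 18635 genes of the deposited table. The question asked of them was whether their mRNA differed between tumor-educated macrophages (TEMs) with and without a deletion of *Phgdh*, which encodes the enzyme of the committed step of serine synthesis.

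TEMs were bone marrow-derived macrophages (BMDMs) kept for 24 h in AE17-TCM, a medium conditioned by the murine mesothelioma line AE17. The marrow came from C57BL/6 mice aged 6 to 8 weeks and was differentiated with medium from L929 fibroblasts, and RNA was sequenced from 4 biological replicates per genotype. Both genotypes were homozygous for the floxed allele, *Phgdh* fl/fl. The controls were *Phgdh* fl/fl littermates with both copies of *Cx3cr1* intact and no Cre (control TEMs). The deleted genotype, *Phgdh* fl/fl *Cx3cr1*-Cre, expressed Cre from 1 *Cx3cr1* allele (PHGDH-deficient TEMs, or samples with Cre). Effects of the *Phgdh* deletion, of Cre and of the lost *Cx3cr1* copy therefore cannot be told apart in this comparison. BMDMs without TCM were not analysed here.

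In G1, D-type cyclins bind CDK4 or CDK6 and the complexes phosphorylate the retinoblastoma protein RB, which then releases E2F transcription factors. E2F drives cyclin E and the genes of DNA replication, and cyclin E with CDK2 completes RB phosphorylation. Inhibitors of the INK4 family, such as p18 (*Cdkn2c*), block CDK4 and CDK6, whereas those of the CIP/KIP family, such as p27 (*Cdkn1b*), bind cyclin-CDK2 complexes and also associate with D-type cyclins. In macrophages, signals from the CSF1 receptor raise cyclin D1 as the cells enter the cycle.

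The values are normalized counts, that is, reads per gene divided by a size factor of the sample. The reads behind them summed to between 38219563 and 47027420 per sample. *Phgdh* itself had 117 ± 9.82 normalized counts (SD, n = 4) in control TEMs and 27.1 ± 9.39 (SD, n = 4) in PHGDH-deficient TEMs, a log2 fold change of -2.15 (limma adjusted p = 5.09e-08). *Cx3cr1*, the Cre locus, fell from 1075 ± 94.2 to 660 ± 32.2 (SD, n = 4 each; log2 fold change -0.70, limma adjusted p = 1.87e-09). All 7 macrophage markers were present, their summed FPKM lying between 14335 and 15840 in the controls and between 14422 and 15691 with Cre. Most of this sum was *Lyz2*, with means of 12619 and 12509 FPKM, so that it says little of the other markers. At a limma adjusted p under 0.05, none of the 7 was higher with Cre and 3 were lower. This share of calls is close to that over all 13629 genes tested, of which 41% passed, 20.8% higher and 20.3% lower. The 3 lower markers were *Fcgr1*, an Fc receptor gene (-0.40, limma adjusted p = 7.4e-12), *Itgam* (-0.19, limma adjusted p = 7.03e-06) and *Adgre1* (-0.08, limma adjusted p = 0.00558). Of the B cell markers only *Cd79b* (231 to 149 normalized counts, -0.63, limma adjusted p = 2.93e-05) and *Ms4a1* (1.96 to 1.03, too few to test) could be measured, and of the neutrophil markers only *S100a8* (527 to 617, 0.23, limma adjusted p = 0.0044). The remaining markers of these 2 lists were not analysed here. The measured markers of T cells, erythroid, dendritic, mast and stromal or AE17 cells summed to at most 46.7 normalized counts per list and sample, and none of them passed the test. What part these shifts have in the results below was not tested. In bulk RNA, fewer cells of a type and less RNA per cell cannot be told apart.

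*Ccnd1* showed the largest difference among the 10 genes, and its mRNA fell by 31.3% in PHGDH-deficient TEMs. *Ccne2*, *E2f1*, *Cdk6*, *Cdk4* and *Ccnd2* also fell, by between 6.74% and 19.7%, while the inhibitor genes *Cdkn1b* and *Cdkn2c* rose by 9.42% and 12.3%. *Ccnd3* and *Ccne1* differed by less than the spread between replicates. In all, 8 of the 10 genes passed a limma adjusted p of 0.05, 6 lower and 2 higher. The background was high, as 41% of the 13629 genes tested passed the same threshold, 20.8% higher and 20.3% lower. On the recovered reads, edgeR called 8 of the 10 genes and 41.1% of all genes, and DESeq2 called 7 of the 10 and 37.2% of all genes, without *Ccnd2*. In 7 of the 10 genes the genotypes did not overlap, which held for 36.7% of all genes tested. The median log2 fold change was -0.10 over the 10 genes and -0.0018 over all genes tested. Log2 fold changes, here and throughout, are PHGDH-deficient TEMs over control TEMs on the log2(normalized count + 1) scale, and for genes with few reads this scale understates the change.

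**Figure D1:**
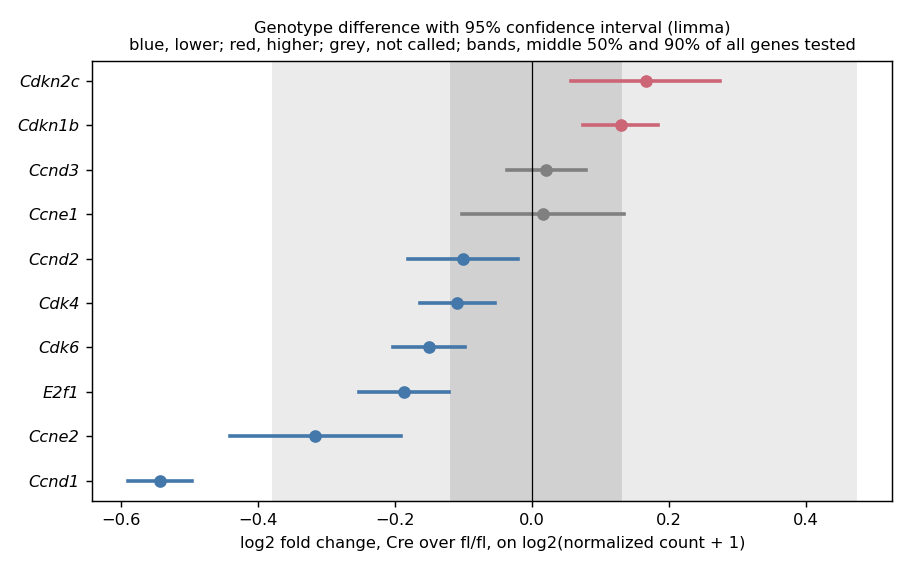
Log2 fold change of each of the 10 genes with its 95% confidence interval, on the log2(normalized count + 1) scale, over grey bands that hold the middle 50% and 90% of all genes tested (from -0.12 to 0.13 and from -0.38 to 0.47). *Ccnd1*, at -0.54, lies outside the wider band, and *Ccnd3* and *Ccne1* have intervals that span 0.

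*Ccnd1* (ENSMUSG00000070348, minus strand, chr7:144929931-144939925 of mm10) encodes cyclin D1. Its normalized counts were 18206, 18059, 18067 and 17594 in control TEMs. In PHGDH-deficient TEMs they were 12374, 12485, 12587 and 11955. The 4 samples of each genotype lay close together, and the lowest control sample stood far above the highest sample with Cre. The means were 17982 ± 267 and 12350 ± 278 (SD, n = 4 each), and the log2 fold change was -0.54 (standard error 0.02, 95% confidence interval -0.59 to -0.50, limma adjusted p = 1.27e-13). An exact two-sided permutation test reached p = 0.0286, the smallest that 4 samples against 4 allow. Between 10998 and 19621 reads stood behind each value, for a counting error of 0.73% in the controls and 0.916% with Cre, against a spread between replicates of 1.48% and 2.25%. The ratio of the means was 0.687 and stayed between 0.682 and 0.694 whichever sample was left out. An absolute log2 fold change as large was seen in 6.24% of all genes tested, and in 1.55% of the 905 genes whose level was within 2-fold of its own.

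*Ccnd2* (ENSMUSG00000000184, minus strand, chr6:127125162-127152193) encodes cyclin D2. Its normalized counts were 2395, 2316, 2421 and 2163 in control TEMs and 2195, 2266, 2182 and 2026 in PHGDH-deficient TEMs. The genotypes overlapped, since control sample 4 lay below 3 of the samples with Cre. The log2 fold change was -0.10 (95% confidence interval -0.18 to -0.02, limma adjusted p = 0.0414), and the exact permutation p was 0.114. The call was lost when control sample 1, 2 or 3 was left out (limma adjusted p = 0.080, 0.0717 and 0.135) and when sample 1, 3 or 4 with Cre was left out (0.0566, 0.0619 and 0.179).

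*Ccnd3* (ENSMUSG00000034165, plus strand, chr17:47505051-47599691) encodes cyclin D3. It had 2708, 2824, 2774 and 2828 normalized counts in control TEMs and 2859, 2775, 2805 and 2860.3 in PHGDH-deficient TEMs. The samples of both genotypes were interleaved. The difference was 0.02 on the log2 scale (95% confidence interval -0.04 to 0.08, limma adjusted p = 0.571), so that a change as large as that of *Ccnd1* lies outside the interval.

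**Figure D2:**
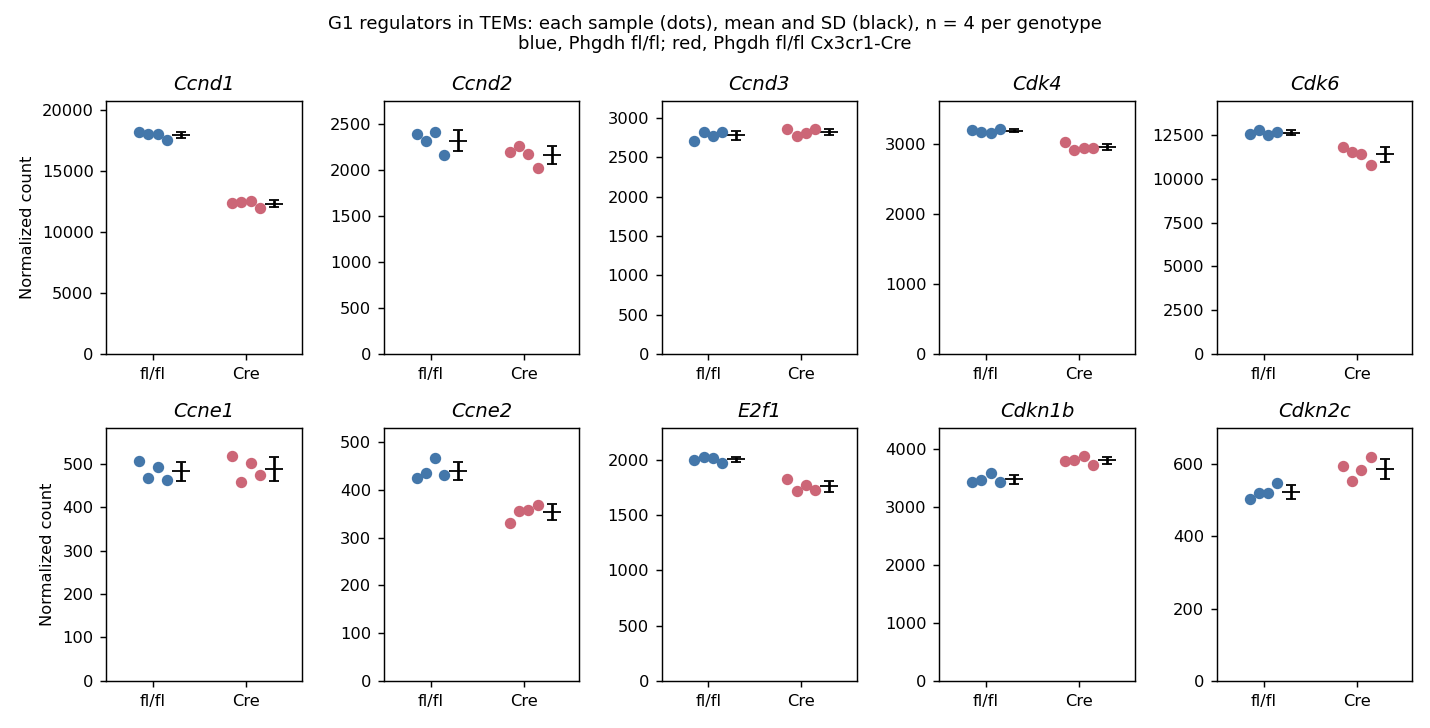
Normalized counts of the 10 genes in each sample (dots in replicate order, blue for *Phgdh* fl/fl and red for *Phgdh* fl/fl *Cx3cr1*-Cre TEMs), with the mean and SD in black (n = 4), each panel on its own linear axis from 0. The red dots of *Ccnd1*, *Ccne2*, *Cdk4*, *Cdk6* and *E2f1* lie below every blue dot, those of *Cdkn1b* and *Cdkn2c* lie above, and the dots of *Ccnd2*, *Ccnd3* and *Ccne1* overlap.

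To compare levels between genes, FPKM was computed from the reads, which divides them by the exon length of the gene and by the total of the sample. On this scale the D-type cyclins summed to 101 ± 1.56 FPKM in control TEMs and to 74.0 ± 1.62 in PHGDH-deficient TEMs (SD, n = 4 each). The samples ranged from 98.9 to 102.4 in the former and from 71.7 to 75.3 in the latter. *Ccnd1* made up 87.1% ± 0.12 of this sum in the controls and 82.6% ± 0.216 with Cre (SD, n = 4 each), again without overlap. The share of *Ccnd3* was 7.24% ± 0.23 in the controls and 10.1% ± 0.334 with Cre, and that of *Ccnd2* was 5.63% ± 0.208 and 7.25% ± 0.217. Cyclin D1 mRNA was thus the main D-type cyclin mRNA in both genotypes, and the smaller sum with Cre came with larger shares of the other D-type cyclins. These sums and shares were not tested on their own, because they rest on the same values as the tests of the single genes.

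**Figure D3:**
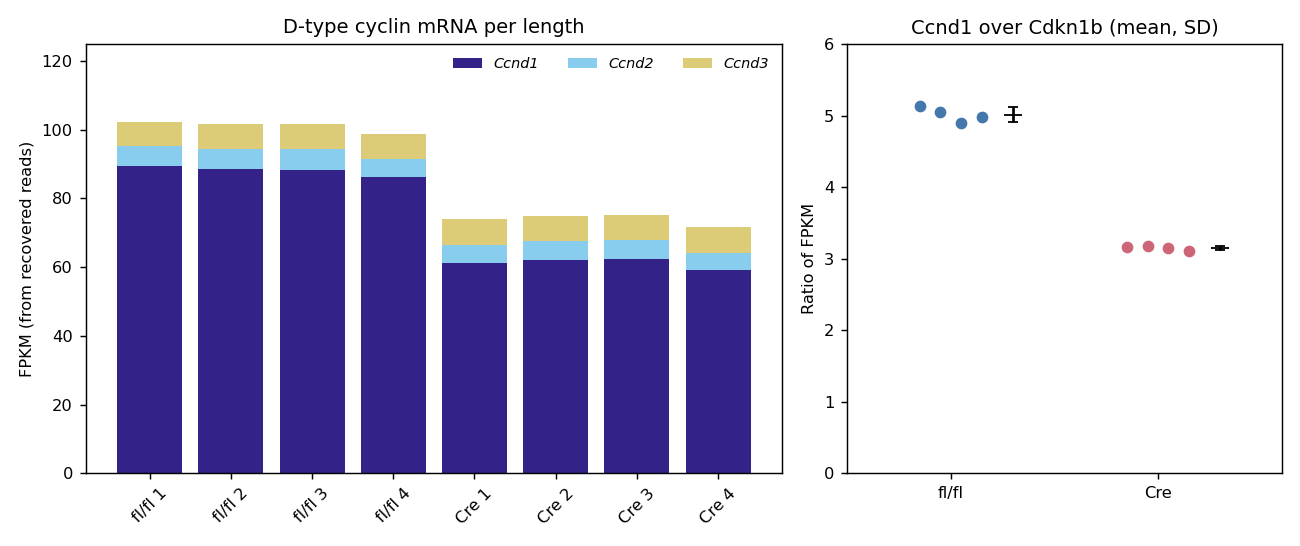
Left, FPKM of *Ccnd1*, *Ccnd2* and *Ccnd3* stacked for each sample (Cre, *Phgdh* fl/fl *Cx3cr1*-Cre). Right, the ratio of *Ccnd1* to *Cdkn1b* FPKM in each sample with the mean and SD (n = 4). The stacks of the control samples end between 98.9 and 102.4 FPKM and those with Cre between 71.7 and 75.3, and the ratio lies between 4.89 and 5.14 against 3.10 and 3.17.

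*Cdk4* (ENSMUSG00000006728, plus strand, chr10:127063534-127067920) and *Cdk6* (ENSMUSG00000040274, plus strand, chr5:3341485-3531008) encode the kinases that D-type cyclins activate. The bases before their RefSeq start sites are shown because both hold the letters CACGTG, the E-box bound by MYC with MAX and by other factors of that family. The 250 bases before each start in RefSeq (GRCm38.p6, the build of mm10) were searched, and CACGTG reads the same on both strands. The *Cdk4* window is chr10:127063285-127063534 and the *Cdk6* stretch is chr5:3343643-3343708, both on the plus strand, written 5′ to 3′ with each E-box in capitals.
Cdk4: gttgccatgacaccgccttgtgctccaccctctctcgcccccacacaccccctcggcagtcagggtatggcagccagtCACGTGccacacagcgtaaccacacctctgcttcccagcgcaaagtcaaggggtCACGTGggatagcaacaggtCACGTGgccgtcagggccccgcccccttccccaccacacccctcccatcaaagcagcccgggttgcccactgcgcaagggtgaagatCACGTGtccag
Cdk6: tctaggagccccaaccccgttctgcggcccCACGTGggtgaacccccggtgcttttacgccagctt
*Cdk4* had 4 E-boxes, which began 172, 118, 98 and 11 bases before the RefSeq start, and *Cdk6* had 1, which began 220 bases before it. The RefSeq starts used for *Cdk6*, *E2f1* and *Cdkn2c* lie inside the genes as annotated here, so the bases before their annotated starts were not searched. Of 32544 promoter windows of this length, 6.03% held an E-box and 7 held 4 or more (0.0215%). At hand were 9 windows for 7 of the 10 genes, and the other 5 of these genes had no E-box. Searched on both strands in the same windows, the FOXO letters GTAAACA (in 3.17% of all windows) occurred once, before *Ccnd3*, and the AP-1 letters TGACTCA (4.46%) and the CRE letters TGACGTCA (1.55%) in none of the 7 genes. *Ccnd1*, *Ccnd2* and *Ccne2* were not searched. In the gene lists described below, E-boxes also stood before *Lin54* and *Mxd4*, which rose, and *Tfdp1*, *Rbbp4*, *Chaf1a*, *Fen1* and *Tyms*, which fell. They stood before *Cdk7*, *E2f3*, *Cul1*, *Klf4* and *Pola2* too, which did not pass the threshold. A match of letters is a description and does not show binding. What part E-boxes have in the changes of *Cdk4* and *Cdk6* was not tested.

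The normalized counts of *Cdk4* were 3204, 3174, 3160.0 and 3211 in control TEMs and 3026, 2917, 2947 and 2935 in PHGDH-deficient TEMs. Every sample with Cre lay below every control sample, although the difference was small. Its mean fell by 7.25% (log2 fold change -0.11, standard error 0.03, limma adjusted p = 0.00200). *Cdk6* had 12553, 12803, 12517 and 12672.5 normalized counts in control TEMs and 11809.6, 11554, 11394 and 10799 in PHGDH-deficient TEMs. The genotypes did not overlap, and the samples with Cre were more spread, with an SD of 429 against 129. Its mean fell by 9.87% (log2 fold change -0.15, standard error 0.03, limma adjusted p = 5.67e-05). Both genes had an exact permutation p of 0.0286.

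Together *Cdk4* and *Cdk6* reached 43.5 ± 0.323 FPKM in control TEMs and 40.2 ± 0.928 in PHGDH-deficient TEMs (SD, n = 4 each). *Cdk6* held 47.9% ± 0.307 of this sum in the controls and 47.2% ± 0.797 with Cre, and the samples of both genotypes overlapped. The FPKM of the D-type cyclins over that of the 2 kinases was 2.33 ± 0.0439 in the controls and 1.84 ± 0.0343 with Cre (SD, n = 4 each), with no overlap. The cyclin mRNA was therefore lower with Cre relative to the mRNA of its kinases.

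Of the E-type cyclin genes, 1 fell and 1 did not pass the test. *Ccne2* (ENSMUSG00000028212, plus strand, chr4:11191351-11204779), which encodes cyclin E2, had 426, 436, 467 and 432 normalized counts in control TEMs and 331, 356, 358 and 369.6 in PHGDH-deficient TEMs. All samples with Cre lay below all control samples. Its mean fell by 19.7% (log2 fold change -0.32, standard error 0.06, 95% confidence interval -0.44 to -0.19, limma adjusted p = 0.000215, exact permutation p = 0.0286). Only 294 to 474 reads were counted per sample, and the counting error of 4.67% in the controls and 5.41% with Cre was about as large as the spread between replicates, 4.18% and 4.62%.

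*Ccne1* (ENSMUSG00000002068, minus strand, chr7:38097984-38107534), which encodes cyclin E1, had 506, 467, 493 and 463 normalized counts in control TEMs and 518, 457, 502 and 474 in PHGDH-deficient TEMs. The genotypes were interleaved, and the log2 difference was 0.02 (95% confidence interval -0.10 to 0.13, limma adjusted p = 0.852). The interval of *Ccne1* and that of *Ccne2* do not overlap, and the difference between the 2 genes was not tested. The sum of both genes was 7.09 ± 0.229 FPKM in the controls and 6.63 ± 0.173 with Cre, and the share of *Ccne1* in it was 59.0% ± 1.32 and 64.4% ± 2.15 (SD, n = 4 each). In each sample *Ccne1* was thus the more abundant E-type cyclin mRNA per length, with a share of between 58.1% and 60.9% in the controls and between 62.7% and 67.3% with Cre.

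*E2f1* (ENSMUSG00000027490, minus strand, chr2:154559407-154569892) encodes an activator E2F that RB holds in check. It had 1996, 2027, 2018 and 1968 normalized counts in control TEMs and 1827, 1720.0, 1771 and 1721 in PHGDH-deficient TEMs. No sample with Cre reached the lowest control sample. The mean fell by 12.1%, from 2002 ± 26.1 to 1759.9 ± 50.8 (SD, n = 4 each; log2 fold change -0.19, standard error 0.03, limma adjusted p = 5.97e-05, exact permutation p = 0.0286).

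Both inhibitor genes moved the opposite way. *Cdkn1b* (ENSMUSG00000003031, plus strand, chr6:134920401-134925513), which encodes p27, had 3427, 3456, 3572 and 3420.2 normalized counts in control TEMs and 3787, 3802, 3870.2 and 3723 in PHGDH-deficient TEMs. All samples with Cre lay above all control samples. Its mean rose by 9.42% (log2 fold change 0.13, standard error 0.03, limma adjusted p = 0.000394, exact permutation p = 0.0286). *Cdkn2c* (ENSMUSG00000028551, minus strand, chr4:109660876-109667189), which encodes p18, had 502, 520.0, 520.0 and 549 normalized counts in control TEMs and 593, 553, 583 and 619.5 in PHGDH-deficient TEMs. The genotypes were only just apart, at 549 in the highest control sample and 553 in the lowest sample with Cre. Its mean rose by 12.3% (log2 fold change 0.17, standard error 0.05, limma adjusted p = 0.0141, exact permutation p = 0.0286). Without sample 4 with Cre the call was lost (log2 fold change 0.14, limma adjusted p = 0.0612).

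Because *Ccnd1* fell and *Cdkn1b* rose, their ratio separated the genotypes widely. It was 5.14, 5.05, 4.89 and 4.97 in control TEMs and 3.16, 3.17, 3.14 and 3.10 in PHGDH-deficient TEMs (ratio of FPKM, means 5.01 ± 0.106 and 3.15 ± 0.0302, SD, n = 4 each). The samples with Cre were nearly alike in this ratio. For the sum of the D-type cyclins over *Cdkn1b* the means were 5.75 ± 0.114 and 3.81 ± 0.0349.

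Ordered by FPKM in control TEMs, the genes ran from *Ccnd1* (88.1 ± 1.39) through *Cdk4* (22.6 ± 0.187), *Cdk6* (20.8 ± 0.228), *Cdkn1b* (17.6 ± 0.34), *E2f1* (14.6 ± 0.197), *Ccnd3* (7.32 ± 0.143), *Ccnd2* (5.70 ± 0.286), *Cdkn2c* (4.49 ± 0.161) and *Ccne1* (4.18 ± 0.182) to *Ccne2* (2.91 ± 0.118; SD, n = 4 each). Of neighbours in this order, only *Cdkn2c* and *Ccne1* overlapped. In PHGDH-deficient TEMs *Ccnd1* was still the highest, at 61.2 ± 1.46, and *Ccne2* the lowest, at 2.36 ± 0.112. There *Cdkn1b* (19.4 ± 0.338) overlapped *Cdk6* (19.0 ± 0.715), and *Ccnd2* (5.37 ± 0.257) overlapped *Cdkn2c* (5.10 ± 0.23).

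Exons of 5 of the genes share bases with a gene on the opposite strand that was also measured. The libraries were made with a directional kit, and the strand setting of the counting is not given in the sources used here. *LTO1* shares 1100 exon bases with *Ccnd1*, 23.4% of the exon length of *Ccnd1*, and fell from 1179 to 1059 normalized counts (log2 fold change -0.15, limma adjusted p = 0.00421). *Tspan31* shares 641 bases with *Cdk4* (19.7%; 4412 and 4439 normalized counts, limma adjusted p = 0.835) and *Ints8* shares 609 with *Ccne2* (17.4%; 887 and 844, limma adjusted p = 0.237). *Bysl*, which shares 361 bases with *Ccnd3* (4.11%), fell by 0.26 on the log2 scale (limma adjusted p = 6.26e-05). The antisense gene *9330179D12Rik* shares 368 bases with *Ccnd2* (3.91%) and had 55.1 and 46.1 normalized counts (limma adjusted p = 0.223). What part these partners have in the values of the 5 genes was not tested.

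The other genes of the G1 machinery were described by list, to be read against the 41% of all genes tested that passed the threshold, 20.8% higher and 20.3% lower. Among 7 further kinase subunits and activators, 2 fell and none rose, a smaller share than over all genes, and the median log2 fold change was -0.07 against -0.0018 over all genes. *Ccnh*, the cyclin of the CDK-activating kinase, fell from 936 ± 25.8 to 743 ± 21.6 normalized counts (mean ± SD, n = 4 each; log2 fold change -0.33, limma adjusted p = 1.88e-06). *Cdk2*, the partner of cyclin E, had 1934 ± 59.8 and 1840 ± 12.7 (SD, n = 4 each); its genotypes did not overlap, but it missed the threshold (log2 fold change -0.07, limma adjusted p = 0.0749).

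Of 5 other CDK inhibitors, 2 rose and 2 fell, against 20.8% and 20.3% of all genes (median -0.09). *Cdkn1a*, which encodes p21, was abundant, at 128 FPKM in the controls, and fell from 19719 ± 413 to 18547 ± 271 normalized counts (mean ± SD, n = 4 each; log2 fold change -0.09, limma adjusted p = 0.00262). *Cdkn1c*, which encodes p57, rose from 529 ± 13.8 to 685 ± 76.5 (0.37, limma adjusted p = 6.71e-05). *Cdkn2a*, whose locus encodes p16 and p19ARF, fell from 160.2 ± 11.9 to 121 ± 14.7 (-0.40, limma adjusted p = 0.00375). *Cdkn2d*, singled out after its values were seen, rose by 0.16 (limma adjusted p = 0.0362), and its genotypes overlapped. The 2 rises among these 5 genes became 1 under eBayes without trend. The same held without control sample 2 or 3, and without sample 1 or 4 with Cre. Over all 7 inhibitor genes, *Cdkn1b* and *Cdkn2c* included, 4 rose, 2 fell and 1 did not pass the threshold.

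Among 12 other E2F, DP and pocket protein genes, 3 rose and 2 fell (median -0.04), a share of calls close to the 41% of all genes. *Rb1*, which encodes RB, rose from 3024 ± 71.8 to 3552 ± 103 normalized counts (mean ± SD, n = 4 each; log2 fold change 0.23, limma adjusted p = 1.33e-06), and the genotypes did not overlap. *Rbl2*, which encodes the related pocket protein p130 and was singled out after its values were seen, rose by 0.20 (limma adjusted p = 4.4e-06). The remaining pocket protein gene, *Rbl1*, singled out likewise, had a log2 difference of -0.07 and did not pass the threshold (limma adjusted p = 0.102). The DP genes, whose products pair with E2Fs, went in opposite directions: *Tfdp1* fell from 1912 to 1675 (-0.19, limma adjusted p = 9.89e-05) and *Tfdp2*, the less abundant of the pair, rose from 453 to 538 (0.25, limma adjusted p = 0.00177). The activator genes *E2f2* and *E2f3*, singled out after their values were seen, had log2 differences of -0.04 and -0.02 and limma adjusted p-values of 0.400 and 0.629.

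The MuvB core and B-Myb act at cell cycle promoters. Of their 6 genes, 1 rose (*Lin54*, 0.12, limma adjusted p = 0.0133) and 3 fell, led by *Mybl2* (-0.29, limma adjusted p = 0.0339), against 20.8% and 20.3% of all genes. The 4 calls became 2 without control sample 2 or 4 or without sample 2 or 4 with Cre, and 1 without sample 3 with Cre. Of 8 ubiquitin ligase genes that turn over cyclins, p27 or E2F1, 1 rose (*Fbxw7*, 0.11, limma adjusted p = 0.0334) and 2 fell, with *Fbxo4* at -0.16 (limma adjusted p = 0.0278). The 3 calls among 8 genes are a share near the 41% of all genes, and they became 1 without control sample 4, and 0 without sample 1 or sample 4 with Cre.

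Of 10 measured transcription factors upstream of G1 regulators, 3 fell and 3 rose (median 0.05), where 20.3% of all genes fell and 20.8% rose. *Myc* fell from 1271 ± 51.2 to 977 ± 25.5 normalized counts (mean ± SD, n = 4 each; log2 fold change -0.38, limma adjusted p = 1.3e-07), and *Mxd1*, whose product opposes MYC at E-boxes, rose from 791.5 ± 3.71 to 1027 ± 39.0 (0.37, limma adjusted p = 2.45e-07). *Maf*, known to restrain macrophage self-renewal, fell from 25638 ± 446 to 19577 ± 1183 (-0.39, limma adjusted p = 2.81e-09). The genotypes did not overlap for any of these 3 genes. Singled out after their values were seen, *Max*, the partner of MYC, fell by 0.25 (limma adjusted p = 1.12e-05), *Mxd4* rose by 0.23 (limma adjusted p = 0.000153) and *Foxo3*, whose product can activate *Cdkn1b*, rose by 0.19 (limma adjusted p = 5.51e-06).

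The genes of the G1/S transition known as E2F targets were lower with Cre almost throughout. Of 36 tested, 31 fell, 1 rose and 4 did not pass the threshold, against a background of 20.3% of all genes lower and 20.8% higher. The list had a median log2 fold change of -0.29. The genotypes did not overlap in 26 of the 36 genes, which held for 36.7% of all genes tested. The largest change was that of *Mcm5*, a subunit of the replicative helicase, which fell from 1920 ± 53.9 to 1366 ± 70.9 normalized counts (mean ± SD, n = 4 each; -0.49, limma adjusted p = 1.63e-09). The one gene that rose was *Dnmt1*, the maintenance DNA methyltransferase (0.07, limma adjusted p = 0.0258), whose genotypes overlapped. Its call was lost under eBayes without trend, without control sample 2, 3 or 4, and without sample 1 or 4 with Cre. *Pcna*, the polymerase clamp and the most abundant of the list per length at 164 FPKM, singled out after its values were seen, fell by 0.37 (limma adjusted p = 1.42e-10).

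E2F-type letters were looked for in the 250 bases before the RefSeq start of each of these genes, as TTTCCCGC, TTTCGCGC, TTTGCCGC or TTTGGCGC on either strand. They occurred in 1.87% of 32544 promoter windows. Of the 30 listed genes with a window, 11 held them in any of their windows. The background counts windows and the list counts genes, so these are unlike measures. Of these 11, 8 fell, 1 rose and 2 did not pass the test (median -0.37), and of the 19 without them 17 fell and 2 did not pass (median -0.25). The 6 genes without a window all fell (median -0.32). None of the 7 searched G1 genes held these letters in its windows. For *E2f1*, *Cdkn2c* and *Cdk6* the windows lie inside the annotated genes, so the bases before their annotated starts were not searched. The 5 stretches that lie outside annotated exons are shown from RefSeq (GRCm38.p6), 5′ to 3′ along the gene, with the E2F-type letters in capitals: *Mcm5* at chr8:75109326-75109397 (plus strand), *Mcm6* at chr1:128359715-128359845 (minus strand), *Cdc6* at chr11:98907983-98908050 (plus strand), *Uhrf1* at chr17:56304098-56304165 (plus strand) and *Pola1* at chrX:93632256-93632323 (minus strand).
Mcm5: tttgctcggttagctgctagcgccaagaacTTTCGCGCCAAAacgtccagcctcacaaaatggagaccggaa
Mcm6: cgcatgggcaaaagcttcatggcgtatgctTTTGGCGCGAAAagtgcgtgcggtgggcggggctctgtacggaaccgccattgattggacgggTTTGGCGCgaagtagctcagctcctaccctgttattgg
Cdc6: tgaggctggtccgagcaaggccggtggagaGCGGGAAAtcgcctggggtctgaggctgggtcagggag
Uhrf1: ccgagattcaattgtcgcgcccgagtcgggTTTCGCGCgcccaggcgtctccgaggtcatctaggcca
Pola1: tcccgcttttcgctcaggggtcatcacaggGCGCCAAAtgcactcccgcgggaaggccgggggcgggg
The *Cdc6* and *Uhrf1* stretches lie before a RefSeq start but inside the genes as annotated here, after their annotated starts. In *Mcm5* a pair of matches on opposite strands overlapped, and *Mcm6* held such a pair and 1 more match closer to the start. The log2 fold changes of these genes were -0.49 for *Mcm5*, -0.44 for *Mcm6*, -0.48 for *Cdc6*, -0.44 for *Uhrf1* and -0.16 for *Pola1*, each with a limma adjusted p under 0.05.

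Of 12 cyclins and markers of S, G2 and mitosis, 4 rose, none fell and 8 did not pass the threshold (median 0.11). Over all genes tested 41% passed, 20.8% higher and 20.3% lower, so that fewer of this list were called than of all genes. *Mki67*, which encodes the proliferation marker Ki-67, rose from 2047 ± 148 to 2989 ± 185 normalized counts (mean ± SD, n = 4 each; log2 fold change 0.55, limma adjusted p = 5.26e-09), with all samples with Cre above all control samples. *Ccna2*, encoding cyclin A2, rose from 534 ± 33.5 to 602 ± 26.2 (0.17, limma adjusted p = 0.0155). *Ccnb1*, encoding cyclin B1, rose from 213 ± 27.7 to 268 ± 21.2 (0.34, limma adjusted p = 0.00493), although its genotypes overlapped. *Cdk1*, the kinase both cyclins activate and singled out after its values were seen, had 1269 ± 100.1 and 1263 ± 61.8 (95% confidence interval of the log2 difference -0.11 to 0.10, limma adjusted p = 0.946).

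**Figure D4:**
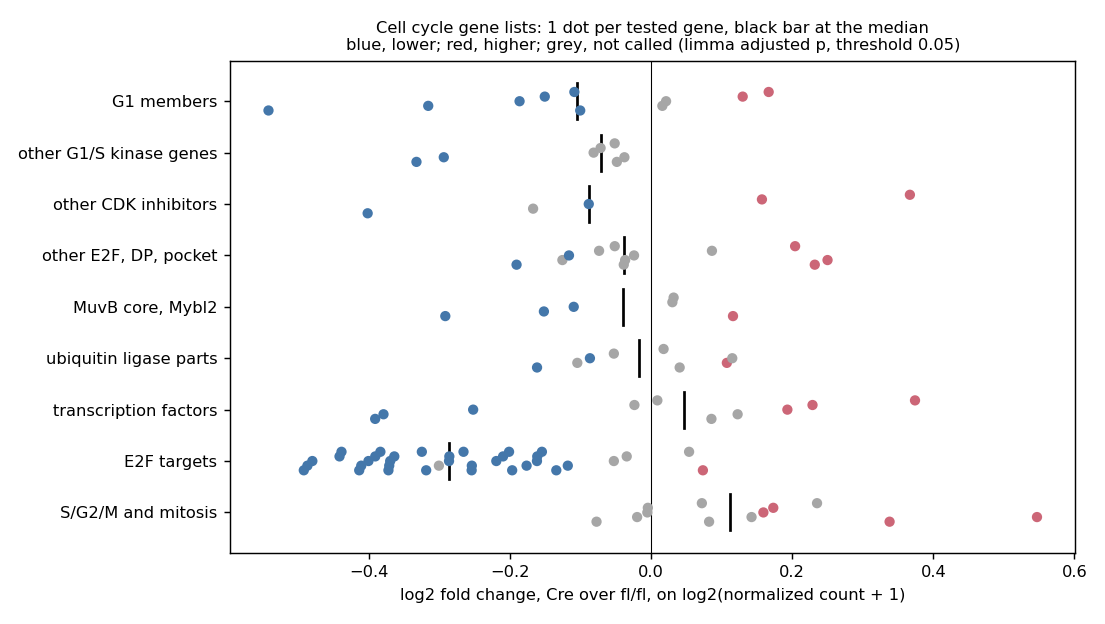
Log2 fold change (log2(normalized count + 1) scale) of each tested gene in the 10 G1 genes and 8 further cell cycle lists, with a black bar at the median of each list and colours for genes past a limma adjusted p of 0.05 (blue lower, red higher). The E2F targets lie mostly left of 0 with a median of -0.29, while the S, G2 and mitosis list has its median at 0.11 and *Mki67* farthest right at 0.55.

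The pattern of *Ccnd1* over the 8 samples was most closely followed by *Skap2* (Pearson r = 0.998 of the log2 values), *Dmpk* (0.998) and *Dmwd* (0.996), and 552 of the 13628 other genes tested had an r over 0.95. These correlations are a description, since the 8 samples fall into 2 genotypes and any gene that separates them cleanly scores high. The log2 fold changes of these 3 genes were -0.15, -1.52 and -0.71. None of the 10 G1 genes lies on the chromosome of *Phgdh* or of *Cx3cr1*. Within 5 Mb of *Ccnd1*, 36 of 84 genes tested passed the threshold (42.9%; median log2 fold change -0.03), against 41% of all genes, and around the 10 genes this share ranged from 31.7% to 48.5%.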

How the data were processed

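RNA-seq of TEMs was analysed, 4 samples labelled *Phgdh* fl/fl against 4 labelled *Phgdh* fl/fl *Cx3cr1*-Cre. The authors mapped single-end reads of 75 bases to mm10 with TopHat2, HTSeq 0.6 gave the counts per gene, and DESeq2 is also named in the submitters' processing notes. What the authors deposited for each sample is a signal, the gene's read count over the size factor of the sample, and not FPKM as the study says. The table's mean, fold change and p-value columns are the authors' own comparison and were not used.

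Reads were recovered from the signal by dividing by the value of 1 read in each sample, found from its lowest values. All 144353 values above 0 (100%) came out whole within 0.01, for size factors of 0.889 to 1.09. On log2(normalized count + 1), limma 3.58.1 (R 4.3.3; lmFit, eBayes with trend, no covariate, two-sided) was fitted to the 13629 genes whose mean reached 10, with Benjamini-Hochberg adjustment over all of them. A gene was called at an adjusted p under 0.05. An exact two-sided permutation test over the 70 labelings was run beside it for single genes. FPKM used recovered reads and the union of GENCODE M21 exons, which cover 18629 of the 18635 genes. The fits were tested on simulated counts. Counting error is small for abundant genes, and replicate pairs differed by more than it (chi-square per gene 1.8 to 6.17 within and 20.9 to 35.2 between genotypes). The genotypes separated on the first principal component (44.8% of the variance). The second (13.2%) set replicates 1 and 4 of both genotypes apart from 2 and 3, and the labels name no batch.

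The 10 genes, the further lists and the markers were chosen with earlier results of these data known. Named were the 10 genes, *Phgdh*, *Cx3cr1*, the called gene with the largest change in each direction from each list, *Cdk2*, *Rb1*, *Cdkn1a*, *Ccna2*, *Ccnb1*, *Mki67* and *Myc*, the 3 genes most like *Ccnd1*, genes whose exons overlap one of the 10, and others where stated. Genes were matched by the table's symbol or else by the annotation's, with *Skp1a* matched as *Skp1*, and *Mycn* was not analysed here. Promoter windows were RefSeq's for GRCm38.p6. As alternatives, the pseudocount was set to 0.1, the filter was dropped or raised to a mean of 50, values were quantile normalized or scaled to total reads, eBayes was run without trend, a replicate block was fitted, edgeR 4.0.16 and DESeq2 1.42.0 were run on recovered reads, and single samples were left out. A term for the split on the second principal component was added after the data were seen.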

Additional observations from a re-analysis of the deposited data

How the results depend on the processing

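Of 360 values recomputed (20 results under 18 other settings), 339 kept their side of the threshold, or stayed within 1.5 times for counts. None reversed the direction of a called gene, and direction was not required of genes that were not called. *Ccnd2* kept its direction but missed the threshold under eBayes without trend (-0.1004, limma adjusted p = 0.148), scaling to total reads (-0.08533, limma adjusted p = 0.0860) and DESeq2 (-0.1002, adjusted p = 0.0513). With each sample left out in turn, *Ccnd2* ranged from -0.1344 to -0.06839 and *Cdkn2c* from 0.1404 to 0.195. *Ccne1*, never past the threshold, ranged from -0.0131 to 0.04634. The 8 G1 genes called became 6 to 8, the genes called overall 4967 to 5944, the MuvB calls 1 to 4 and the ubiquitin ligase calls 0 to 4. The MuvB calls were 2 under DESeq2, and the ubiquitin ligase calls were 1 under eBayes without trend and 1 under DESeq2. The cause of these shifts was not tested. Over all genes, edgeR called 5608 of 13629 (41.1%) and DESeq2 5066 of 13626 (37.2%). Scaling to total reads moved the median of all genes to 0.013.

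Nothing in the labels ties replicate 1 of one genotype to replicate 1 of the other, and likewise for the rest. The deviations of same-numbered samples from the genotype means correlated at 0.0628, 0.0977, 0.1263 and 0.0776 for replicates 1 to 4. Control replicates 2, 3 and 4 each correlated best with the same number of the other genotype, and control replicate 1 with replicate 4 (0.1345). The main fit took no pairing because the labels name none, and whether the numbers mark pairs was not tested. With the replicate block, 5597 genes were called, 5480 of them shared with the fit without it, and 8 of the 10 G1 genes were called. The block moved the MuvB calls from 4 to 3, the ubiquitin ligase calls from 3 to 4 and the E2F target calls from 32 to 31.

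Depth limits *Ccne1*, *Ccne2* and *Cdkn2c* most, each with at most 637 reads per sample.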
